A study of Caenorhabditis elegans with 48 samples.

Results

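Adult *C. elegans* kept on the auxin analog K-NAA were compared with mock-treated adults over the first hours of a day in constant conditions, at circadian times (CT) 1, 3 and 5. The comparison took the libraries of these 3 time points, 6 mock and 6 K-NAA (2 culture plates per time point and condition), which are 12 of the 48 libraries of the series. The other 36 libraries cover the 9 time points from CT7 to CT23, and they were used to ask what was particular to CT1 to CT5. All worms were of the strain JDW259, so mock and K-NAA worms shared the same alleles: wrdSi55, a transgene that drives TIR1 from the *eft-3* promoter, and *nhr-23*(kry61), in which the gene carries an AID\* degron, a TEV site and 3xFLAG. Per the labels, worms were moved to plates with or without 0.4 mM K-NAA 12 h before sampling, and the Methods state a different amount of K-NAA. Per the Methods, the worms had also been kept with 10 µM FUdR, which removes offspring, after cycles of 12 h at 25 °C and 12 h at 15 °C, and were placed on K-NAA 84 h after L1 release, so that CT1 to CT5 correspond to 13 to 17 h on K-NAA and CT23 to 35 h. Per the study, the constant conditions were at 15 °C, so the time since the last phase at 25 °C also ran in step with CT. The hour of the day, the time spent on K-NAA and the time since the last warm phase therefore cannot be told apart. The series holds no K-NAA libraries of worms without the degron. An effect of K-NAA itself and an effect of the loss of NHR-23 therefore cannot be told apart either.

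NHR-23 is the worm homolog of ROR, a nuclear hormone receptor of the mammalian clock, and in larvae it drives genes of the molting cycle. TIR1 is a plant F-box protein that, when it binds auxin, directs proteins with the degron to the proteasome. A pair of protein quality systems recurs in the results: the heat shock response of the cytosol, in which HSF-1 activates small heat shock proteins that hold unfolding proteins in solution, and the unfolded protein response of the endoplasmic reticulum (ER), in which IRE-1 and XBP-1 raise the level of ER chaperones and protein disulfide isomerases. Worms also clear foreign compounds with cytochromes P450, glucuronosyl- and glutathione transferases and ABC transporters, many of them in the intestine.

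Levels are given in TPM, the share of a transcript in all the RNA of a library after correction for its length, measured in the whole body. A difference in bulk RNA can come from fewer cells of a type or from less RNA per cell, and these cannot be told apart. The libraries held between 15239 and 15932 genes above 0, and replicate plates correlated at 0.980 to 0.989. All 11 intestine, 12 body wall muscle and 16 neuron markers were above 0 in all 12 libraries, as were 6 of 10 hypodermis markers. The summed RNA of the major sperm proteins separated some libraries from the rest. It was 365 TPM in mock CT1 replicate 1, 142 TPM in mock CT5 replicate 1, 199 and 118 TPM in the K-NAA CT3 replicates, and at most 10.5 TPM in the other 8, against medians of 60.6 TPM (mock) and 82.4 TPM (K-NAA) at the other hours.

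*nhr-23* mRNA, which the degron does not act on, lay between 31.9 and 37.4 TPM in mock (median 33.1) and between 29.9 and 33.4 TPM in K-NAA (median 31.3). The groups overlapped. The means were 33.5 ± 1.96 and 31.5 ± 1.64 TPM (SD, n = 6 each), and the log2 difference was -0.09 (95% interval -0.20 to 0.02, adjusted p = 0.474 from limma). An exact two-sided permutation test within time points gave p = 0.111, where the smallest possible p was 0.00926. The mRNA does not measure the loss of the protein.

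At CT1 to CT5, 243 of 13813 genes changed in K-NAA at an adjusted p under 0.05 (limma, 1.76% of the genes tested), 166 lower (1.2%) and 77 higher (0.557%). The lower genes made up 68.3% of the calls, and 57.0% after quantile normalization (171 lower, 129 higher). All 243 had the same sign of the difference at CT1, CT3 and CT5. The 6 K-NAA and 6 mock libraries did not overlap for 206 of them, 146 lower and 60 higher, where 2.3% of all genes tested had groups that did not overlap, 1.56% with K-NAA below and 0.738% with K-NAA above. The genes were called from these same libraries, so the shared sign and the lack of overlap are no separate support. Among the called genes 43 differed by at least 1 on the log2 scale, 37 of them lower. The number of calls rested on the libraries: it was 410 without K-NAA CT1 replicate 1 and 138 without the 2 mock libraries highest in sperm RNA.

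The largest fall among genes of at least 1 TPM was that of Y41C4A.32 (chromosome III, 11721706 to 11723607 in WBcel235), from 338 to 502 TPM in mock (median 429) to 3.15 to 7.42 TPM in K-NAA (median 4.995). Its log2 difference was -6.28 (standard error (SE) 0.169, adjusted p = 8.31e-09 from limma), or 81.8-fold in mean TPM. *lips-11*, a gene related to lipases (chromosome II, 1108841 to 1111001), lay between 76.0 and 99.5 TPM in mock (median 81.7) and between 0.112 and 1.91 TPM in K-NAA (median 0.626), a log2 difference of -6.18 (SE 0.260, adjusted p = 2.22e-07 from limma). For both genes every K-NAA library was far below every mock library. *cdr-4*, a cadmium-responsive gene, fell from 110 to 164 TPM in mock (median 142) to 11.4 to 19.6 TPM in K-NAA (median 15.3), a log2 difference of -3.18 (SE 0.121, adjusted p = 1.47e-07 from limma). F22E5.6 fell by 3.48 and *sdz-35*, a gene first described as zygotic and dependent on SKN-1, by 3.35 on the log2 scale. Genes of defense against microbes were also among the 12 largest falls: *lys-3*, a lysozyme, by 2.73, and *spp-27*, a saposin-like protein, by 2.45. None of these 7 genes passed the test of a K-NAA effect that differs from the other hours. The log2 difference of *lips-11* in the windows CT7 to CT11, CT13 to CT17 and CT19 to CT23 was -5.94, -6.02 and -6.53, and that of *lys-3* was -2.17, -1.28 and -1.11. The plot of the named genes by window shows these side by side.

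**Figure D1:**
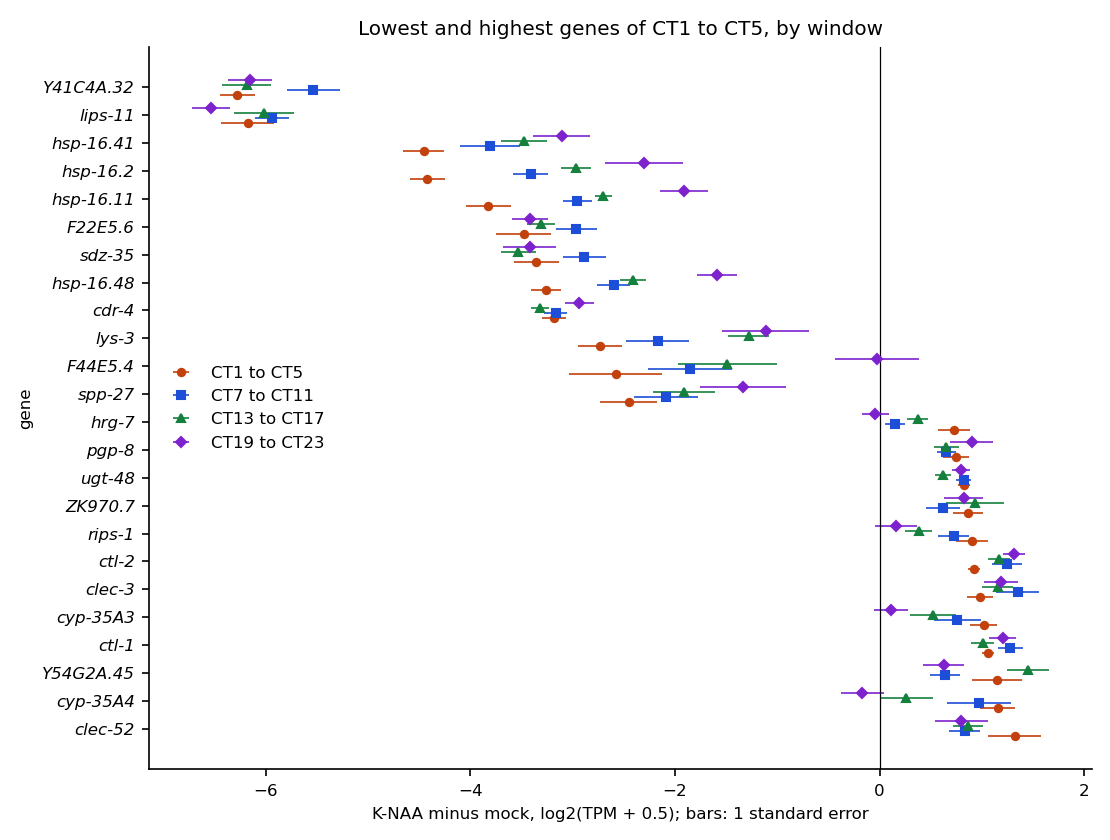
Log2 difference of K-NAA minus mock (horizontal axis, on the log2(TPM + 0.5) scale) for the 12 lowest and 12 highest genes of CT1 to CT5 (rows), in that window and in the 3 later ones, with bars of 1 standard error. *Y41C4A.32* and *lips-11* stand lowest in every window, while *hsp-16.2* is at -4.42 at CT1 to CT5 and at -3.41, -2.97 and -2.30 later in the day.

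Of 15 heat shock genes, 14 passed the filter on low values and 7 fell in K-NAA (1.2% of all genes fell), while none rose. The median log2 difference over the 14 was -1.69, against -0.013 over all genes tested. The 7 are the small heat shock genes *hsp-16.2*, *hsp-16.41*, *hsp-16.11*, *hsp-16.48* and *hsp-17* and the HSP70 family genes *hsp-70* and F44E5.4. *hsp-16.2* and *hsp-16.41* neighbor each other on chromosome V (1804334 to 1804957 and 1805178 to 1805875). *hsp-16.2* lay between 22.8 and 43.6 TPM in mock (median 27.2) and between 0.224 and 1.57 TPM in K-NAA (median 1.02), a log2 difference of -4.42 (SE 0.174, adjusted p = 1.61e-07 from limma), 30.6-fold in mean TPM. *hsp-16.41* lay between 20.8 and 37.4 TPM in mock (median 23.03) and between 0.194 and 1.31 TPM in K-NAA (median 0.650), with a log2 difference of -4.46 (SE 0.198, adjusted p = 3.26e-07 from limma). In both genes every mock library was above every K-NAA library.

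The more abundant members of the family fell to a level well above 0. *hsp-16.11* lay between 168 and 315 TPM in mock (median 202) and between 8.09 and 18.7 TPM in K-NAA (median 16.97), a log2 difference of -3.82 (SE 0.217, adjusted p = 2.51e-06 from limma). *hsp-16.48* (chromosome V, 9088131 to 9088617) lay between 112 and 264 TPM in mock (median 142) and between 11.8 and 22.5 TPM in K-NAA (median 14.6), a log2 difference of -3.26 (SE 0.146, adjusted p = 3.26e-07 from limma). The values of both are uncertain between near-identical copies, *hsp-16.1* for the former, which was listed at 0 in all 12 libraries and did not pass the filter, and *hsp-16.49* for the latter. *hsp-70* was low, between 2.12 and 3.35 TPM in mock (median 2.33) and between 0.0760 and 0.274 TPM in K-NAA (median 0.156), with a log2 difference of -2.17 (SE 0.129, adjusted p = 3.48e-06 from limma). *hsp-17* fell least of the 7, with means of 148 ± 6.19 and 65.0 ± 11.9 TPM (SD, n = 6 each) and a log2 difference of -1.20. F44E5.4 fell by 2.58. Its near-identical copy F44E5.5 was not called, with means of 4.85 (mock) and 0.431 TPM (K-NAA) and groups that overlapped. The small heat shock genes *hsp-12.3* and *hsp-12.6*, which are low, showed no such fall. The mean of *hsp-12.3* went from 0.609 to 0.977 TPM and that of *hsp-12.6* from 1.01 to 0.999 TPM, with overlap in both. Of the 14 genes tested 12 had a negative and 2 a positive log2 difference, the highest being 0.43. The genes of the list that are abundant without stress were not called either. These are *hsp-1*, *hsp-90* and *hsp-110*, the cytosolic chaperones of the HSP70, HSP90 and HSP110 families. Their log2 differences were -0.21, -0.12 and -0.16, with groups that overlapped. *hsf-1*, which encodes the transcription factor of the response, had means of 47.1 and 45.6 TPM and a 95% interval of the log2 difference from -0.16 to 0.07.

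Of 18 genes of the ER unfolded protein response, all tested, 10 fell in K-NAA and none rose, where 1.2% of all genes tested fell and 0.557% rose. In all 10 the 6 K-NAA libraries lay below the 6 mock libraries (1.56% of all genes tested did so). The median log2 difference of the 18 was -0.27. *ckb-2*, a choline kinase, moved most, from 20.8 to 26.99 TPM in mock (median 24.03) to 4.09 to 6.68 TPM in K-NAA (median 5.38), a log2 difference of -2.10 (SE 0.102, adjusted p = 5.92e-07 from limma). *pdi-6*, a protein disulfide isomerase, lay between 106 and 123 TPM in mock (median 118.8) and between 56.6 and 66.5 TPM in K-NAA (median 59.9), a log2 difference of -0.93 (SE 0.043, adjusted p = 3.96e-07 from limma). *hsp-4*, the inducible BiP chaperone, lay between 196 and 206 TPM in mock (median 205) and between 141 and 151 TPM in K-NAA (median 147), a log2 difference of -0.47 (SE 0.031, adjusted p = 7.86e-06 from limma). The 2 groups of *hsp-4* were each narrow, as the plot of the ER genes by library shows. *hsp-3*, the other BiP chaperone, fell by 0.73, *pdi-2* by 0.80, the calreticulin gene *crt-1* by 0.70, the co-chaperone gene *dnj-7* by 0.46, the GRP94 gene *enpl-1* by 0.41, and the oxidoreductase gene *ero-1* and *pdi-3* by 0.27 each. The gene *xbp-1* was not called, with means of 127 and 128 TPM and a 95% interval of its log2 difference from -0.13 to 0.16. The sensor genes *ire-1*, *atf-6* and *pek-1* did not pass the test either. In the 3 later windows the same list had 11, 9 and 7 genes lower, where 3.12, 3.9 and 3.6% of all genes tested were lower. Its medians there were -0.26, -0.27 and -0.24, and no member passed the test of an effect that differs from the other hours.

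**Figure D2:**
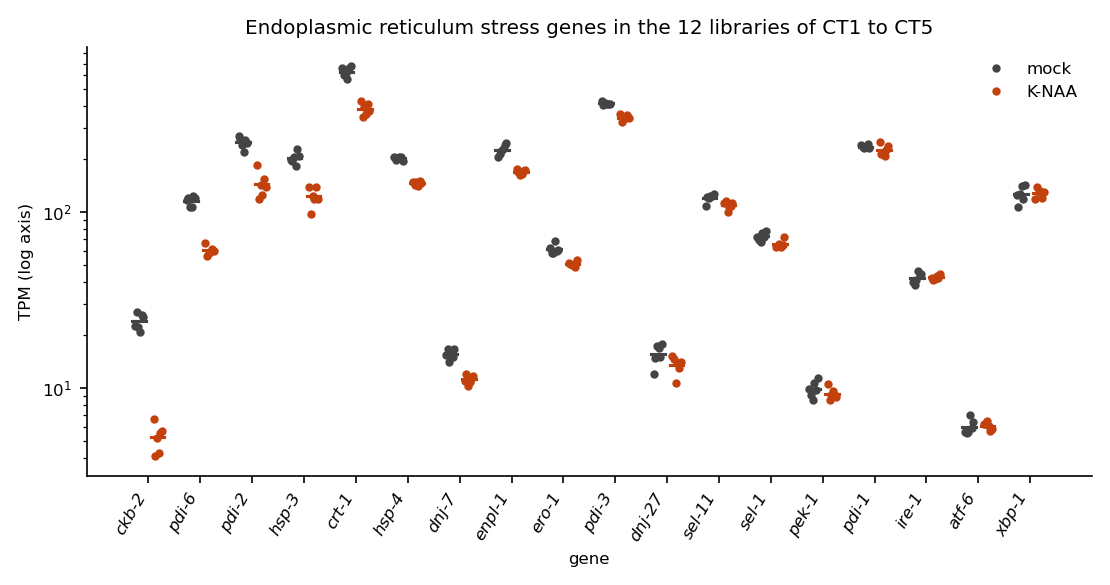
TPM (vertical log axis) of the 18 genes of the ER unfolded protein response in the 6 mock and 6 K-NAA libraries of CT1 to CT5, with each point a library and each line a mean. *ckb-2* falls from 24.03 ± 2.49 to 5.25 ± 0.973 TPM (mean ± SD, n = 6 each) and *hsp-4* from 202 ± 4.67 to 146 ± 3.80 TPM, with no overlap in either.

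Among the genes that rose, a pair of catalase genes of the tandem cluster on chromosome II had even values within each group. *ctl-1*, the cytosolic catalase, lay between 31.8 and 41.3 TPM in mock (median 39.1) and between 75.6 and 81.5 TPM in K-NAA (median 79.9), a log2 difference of 1.06 (SE 0.061, adjusted p = 2.88e-06 from limma). *ctl-2*, the peroxisomal catalase, lay between 35.98 and 42.8 TPM in mock (median 40.5) and between 69.6 and 81.5 TPM in K-NAA (median 75.9), a log2 difference of 0.92 (SE 0.057, adjusted p = 4.90e-06 from limma). Neither gene overlapped between groups. They were the only genes of the 18 of the DAF-16 and oxidative stress list to pass, where 0.557% of all genes tested rose. In the later windows 3, 3 and 3 genes of the list rose and 0, 0 and 1 fell. Of all 13813 genes tested, 94, 212 and 262 rose and 431, 539 and 497 fell there. None of the 18 passed the test of a K-NAA effect that differs from the other hours. *gst-4*, a glutathione transferase that responds to SKN-1, rose by 0.48 on the log2 scale, from a median of 34.9 to 50.4 TPM.

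Genes of detoxification moved in both directions. Of 53 cytochromes P450, 2 rose and 3 fell, of 56 glucuronosyltransferases 2 rose and 3 fell, of 43 glutathione transferases 1 rose and 2 fell, and of 36 ABC transporters 2 rose and 1 fell, where 0.557% of all genes tested rose and 1.2% fell. *cyp-35A4* lay between 2.14 and 4.80 TPM in mock (median 3.63) and between 5.23 and 12.298 TPM in K-NAA (median 8.13), a log2 difference of 1.15 (SE 0.171, adjusted p = 0.00459 from limma). *cyp-35A3*, its near-identical neighbor among the cytochromes that foreign compounds induce, rose from a median of 23.2 to 42.5 TPM, a log2 difference of 1.02 (SE 0.132, adjusted p = 0.00179 from limma), and reads may be split between the pair. The log2 difference of *cyp-35A4* was 0.97, 0.26 and -0.17 in the 3 later windows and that of *cyp-35A3* was 0.76, 0.52 and 0.11, though the test of a differing effect was not passed (adjusted p = 0.649 and 0.687 from limma). The transferase genes *ugt-48* and *ugt-39* rose by 0.83 and 0.67, and *pgp-8* and *pgp-6*, P-glycoprotein transporters, by 0.74 and 0.61. On the other side *cyp-13A4* fell by 2.45, from a median of 3.28 to 0.174 TPM, *cyp-13A6* fell by 1.52 and *ugt-19* by 1.91.

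**Figure D3:**
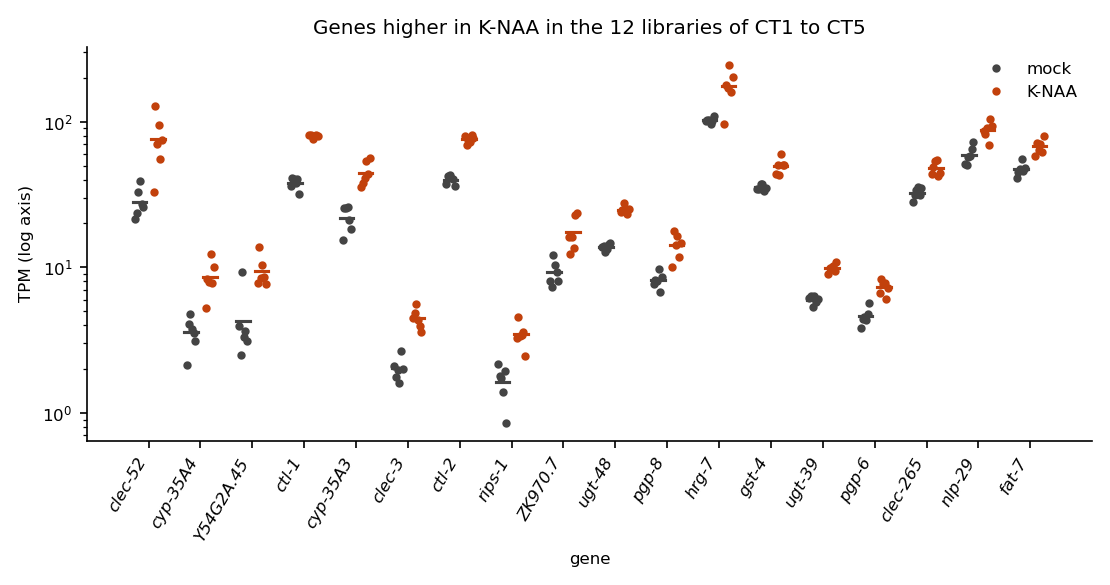
TPM (vertical log axis) of 18 genes that rose in K-NAA, in the 6 mock and 6 K-NAA libraries of CT1 to CT5, with each point a library and each line a mean. *ctl-1* rises from 38.05 ± 3.58 to 79.5 ± 2.13 TPM (mean ± SD, n = 6 each) with no overlap, while *clec-52* spreads from 32.996 to 127 TPM in K-NAA and overlaps mock.

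The gene with the largest rise among those of at least 1 TPM, *clec-52*, a C-type lectin, varied widely, from 21.4 to 39.1 TPM in mock (median 26.5) and from 32.996 to 127 TPM in K-NAA (median 72.8), and its groups overlapped (log2 difference 1.32, SE 0.258, adjusted p = 0.0256 from limma). With 1 library left out in turn its adjusted p ran from 0.00302 to 0.0701 and the call was lost in 7 of 12 fits. Of 107 C-type lectins 7 rose and 1 fell, against 0.557 and 1.2% of all genes tested, among them *clec-3*, which rose by 0.98, and *clec-265*, which rose by 0.55. Of 19 epidermal antimicrobial peptides 2 rose (0.557% of all genes did), *nlp-29* and *nlp-28*, by 0.57 and 0.37, with groups that overlapped in both, and the call of *nlp-28* was lost in 11 of the 12 fits that left out a library. In lipid metabolism, of 24 genes of fatty acid binding proteins and lipases 3 fell and none rose (1.2% of all genes tested were lower and 0.557% higher): *lips-11*, described above, *lbp-8*, whose product binds fatty acids, by 2.27, and *lips-13*, which is below 1 TPM, by 0.77. Of 15 desaturases and elongases *fat-7* rose by 0.52 and *fat-5* fell by 0.30, and of 49 genes of fatty acid activation and oxidation *acs-5*, an acyl-CoA synthetase gene, rose by 0.25. The call of *lips-13* was lost in 11 and that of *fat-5* in 5 of the 12 fits that left out a library. Of 14 genes of glycogen, trehalose and gluconeogenesis *pck-1*, which encodes PEPCK, rose by 0.47. Of 6 vitellogenin genes *vit-2* alone was called, from a median of 5293 TPM in mock to 6554 TPM in K-NAA (log2 difference 0.32), and this call was lost after quantile normalization. Of the 6, 5 had a positive sign here (median 0.25). In the later windows 2, 5 and 5 rose, with medians of 0.24, 0.43 and 0.49, where 94, 212 and 262 of 13813 genes tested rose. No vitellogenin passed the test of a differing effect.

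Lists of rhythmic, molting and clock genes were counted next, and a full list of the direct targets of NHR-23 was not tested. None of the 9 cluster ii genes, the rhythmic genes that the study grouped by their time course in another data set, was called, and their log2 differences ran from -0.14 to 0.15 with a lowest adjusted p of 0.651 (limma). The study reports binding peaks of NHR-23 near most of these genes and proposes that they lie downstream of it. It looked at their rhythm over the day, which levels at CT1 to CT5 alone do not test. None of 11 molting regulators, 16 genes of molting and the apical matrix, 5 furrow collagens and 178 nuclear hormone receptor genes tested was called either, where 1.76% of all genes were called. At that share these lists and the cluster ii genes would hold few calls, so the zeros are no result about their genes. Of 70 collagen genes with a *col* number, *col-98* rose, by 0.28. Of the 9 clock gene homologs only *atf-2*, a bZIP factor, was called, from 1.02 to 1.51 TPM in mock (median 1.24) to 1.504 to 2.83 TPM in K-NAA (median 2.22), with groups that overlapped (log2 difference 0.60, SE 0.129, adjusted p = 0.0425 from limma). It was not called in any other window, the call was lost in 11 of the 12 fits that left out a library, and its effect did not pass the test against the other hours (adjusted p = 0.621 from limma). *lin-42*, the homolog of *Per*, had a log2 difference of -0.30 with a 95% interval from -0.65 to 0.05, and *kin-20*, the casein kinase homolog, one of -0.01 with an interval from -0.14 to 0.12.

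No marker list of a tissue had a called gene: 0 of 11 intestine, 7 hypodermis, 12 body wall muscle, 15 neuron, 9 pharynx, 16 germline, 20 oocyte and 28 major sperm protein genes tested passed. With 1.76% of all genes called, so few markers would hold few calls, and the zeros are no result about the tissues. The summed level of the intestine markers ran from 1024 to 1170 TPM in mock (median 1093) and from 1095 to 1456 TPM in K-NAA (median 1392), so that the ranges overlapped while the median was higher. The higher sum was not shared by all members. Of the 11 markers 6 had a positive and 5 a negative log2 difference, with a median of 0.01 (from -0.13 to 0.46). The part of the higher sum in the genes named above was not tested. Without the 2 mock libraries highest in sperm RNA the calls of *vit-2*, *gst-4*, *fat-7*, *pck-1*, *pgp-6* and *pgp-8* were lost, while those of both catalase genes, the *cyp-35A* pair and the *hsp-16* genes were kept.

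Whether the K-NAA effect was particular to CT1 to CT5 was tested over all 48 libraries, as the difference between the effect in this window and the mean effect at the 9 other time points. Of 13813 genes, 10 passed (0.0724%, limma), 9 with a lower and 1 with a higher effect at CT1 to CT5, and 859 were at an unadjusted p under 0.05 (6.22%). The 10 are *hsp-16.2*, *hsp-16.11*, *hsp-16.48* and *hsp-70*, which makes 4 of the 14 heat shock genes tested, and *kreg-1*, Y94H6A.10, M02H5.8, K09C6.9, F59A7.12 and *sft-1*. In 9 of them the mock level at CT1 to CT5 differed from mock at the other hours, higher in 8 and lower in *sft-1*. The K-NAA level differed in F59A7.12 alone. In K-NAA *hsp-16.2* and *hsp-70* were near the floor, with means of 0.967 and 0.157 TPM at CT1 to CT5. At the other hours the K-NAA means were 1.23 and 0.264 TPM. The 0.5 TPM added before the log shrinks changes at such levels, so for these genes a change in K-NAA could hardly be seen. By condition, the level at CT1 to CT5 differed from the other hours for 375 genes in mock (2.71%) and for 112 in K-NAA (0.811%). The reading of each condition by itself was chosen after the values were seen. The 10 genes were picked by the difference between the conditions in these same libraries, so a change in mock or in K-NAA is built in.

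**Figure D4:**
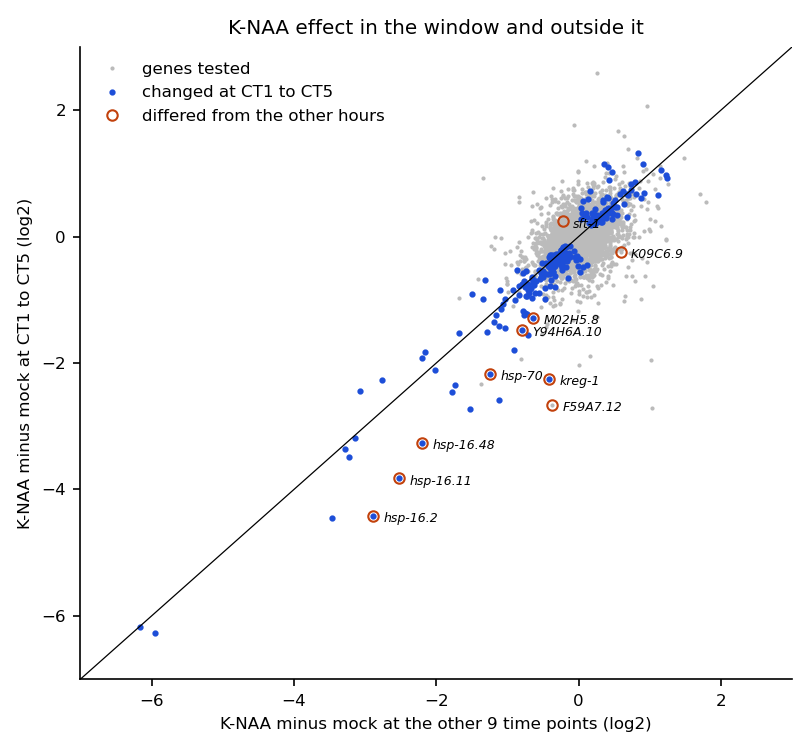
Log2 difference of K-NAA minus mock at CT1 to CT5 (vertical axis) against its mean over the 9 other time points (horizontal axis), 1 point per gene tested, with the 10 genes whose effect differed between them marked. 9 of the 10 lie below the line of equal effects and *sft-1* above it.

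For *hsp-16.2* the mean effect at CT1 to CT5 was lower than at the other hours by 1.53 on the log2 scale (SE 0.274, adjusted p = 0.0195 from limma). Its mock level averaged 38.1 TPM at CT1, 23.4 at CT3 and 27.2 at CT5, then between 12.5 and 18.6 TPM from CT7 to CT17, and 4.24 TPM at CT21. In K-NAA it stayed between 0.548 and 2.10 TPM as a mean of each time point. Mock was higher at CT1 to CT5 than at the other hours by 1.31 on the log2 scale (adjusted p = 1.59e-04), and K-NAA differed by -0.22 (adjusted p = 0.755, limma for both). *hsp-16.11* had an effect difference of -1.30 (SE 0.217, adjusted p = 0.0122), with 1.07 in mock and -0.23 in K-NAA. *hsp-16.48* had one of -1.06 (SE 0.201, adjusted p = 0.0267), with 0.77 in mock and -0.29 in K-NAA, and *hsp-70*, which is too low in TPM for the naming rule and was added after its values were seen, one of -0.92 (SE 0.182, adjusted p = 0.0394), with 0.73 in mock. *hsp-16.41* had a difference of -0.99 that did not pass (adjusted p = 0.342 from limma). Over the 14 heat shock genes the median effect was -1.69 at CT1 to CT5 and -1.10, -0.89 and -0.49 in the later windows, with 7, 7, 7 and 6 genes lower in turn, where 1.2, 3.12, 3.9 and 3.6% of all genes tested were lower.

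*kreg-1* (chromosome X, 8709764 to 8710015) lay between 34.7 and 81.4 TPM in mock at CT1 to CT5 (median 57.4) and between 5.98 and 23.8 TPM in K-NAA (median 10.1), a log2 difference of -2.25 (SE 0.349, adjusted p = 0.00655 from limma). The groups did not overlap, and the call was lost without the 2 mock libraries highest in sperm RNA. In the 3 later windows its log2 difference was -0.76, -0.42 and -0.07, its mock median went to 37.7, 19.5 and 16.9 TPM, and its effect difference was -1.83 (SE 0.373, adjusted p = 0.0478 from limma). Y94H6A.10 (chromosome IV, 2710121 to 2710666) went from 131 to 190 TPM in mock (median 164) to 43.97 to 65.0 TPM in K-NAA (median 59.4), with an effect of -1.47 here, -0.81, -0.82 and -0.76 later, and an effect difference of -0.68 (adjusted p = 0.0141 from limma). M02H5.8 (chromosome V, 449981 to 450437) went from 181 to 266 TPM in mock (median 195) to 78.3 to 96.4 TPM in K-NAA (median 81.2), with an effect of -1.28 here, -1.11, -0.40 and -0.39 later, and an effect difference of -0.64 (adjusted p = 0.0267 from limma). Neither of the latter overlapped between groups at CT1 to CT5.

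Of the 10 genes, 3 were not called within CT1 to CT5 itself. K09C6.9 (chromosome V, 853436 to 855066) lay between 5.94 and 9.99 TPM in mock (median 7.29) and between 5.42 and 7.71 TPM in K-NAA (median 6.202), overlapping, with a log2 difference of -0.25 where the later windows had 0.23, 0.79 and 0.75. *sft-1* (chromosome III, 3086671 to 3091737), the homolog of SURF1, an assembly factor of cytochrome oxidase, lay between 8.501 and 10.2 TPM in mock (median 9.48) and between 10.7 and 11.58 TPM in K-NAA (median 11.1). The groups of *sft-1* did not overlap, its log2 difference was 0.24 (adjusted p = 0.0618 from limma) against -0.18, -0.13 and -0.36 later, and its effect difference was 0.46 (SE 0.093, adjusted p = 0.0456 from limma). F59A7.12 (chromosome V, 2030177 to 2030407) lay between 10.8 and 18.7 TPM in mock and was listed at 0 in 3 K-NAA libraries, CT1 replicate 1 and both replicates of CT5, with up to 16.9 TPM in the others. Its effect difference was -2.29 (SE 0.372, adjusted p = 0.0122 from limma), and K-NAA at CT1 to CT5 differed from K-NAA at the other hours by -2.43.

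The number of genes that passed depended on the reference hours. Against CT19 to CT23 alone 18 genes passed (0.13%), all 10 of the above among them. Against CT13 to CT17 1 gene passed (0.00724%), M02H5.8, and against CT7 to CT11 none did (limma, 480 genes at an unadjusted p under 0.05). The number of genes also rested on single libraries: it was 0 without mock CT3 replicate 1 (limma, 771 genes at an unadjusted p under 0.05), 3 without mock CT5 replicate 1 or K-NAA CT5 replicate 2, 4 without K-NAA CT3 replicate 1 or CT5 replicate 1, 5 without K-NAA CT1 replicate 1, and 6 without mock CT1 replicate 1, CT1 replicate 2 or CT3 replicate 2. Of the single genes, over the 12 fits that left out a library of CT1 to CT5, F59A7.12 and *hsp-16.11* lost their call in 1 (without mock CT3 replicate 1), Y94H6A.10 in 4, *hsp-16.2* in 5, *hsp-16.48* in 7, M02H5.8 in 8, *kreg-1* in 9, K09C6.9 in 10, and *sft-1* and *hsp-70* in all 12. With the sperm RNA as a covariate 8 genes passed, *sft-1* and *kreg-1* no longer among them.

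**Figure D5:**
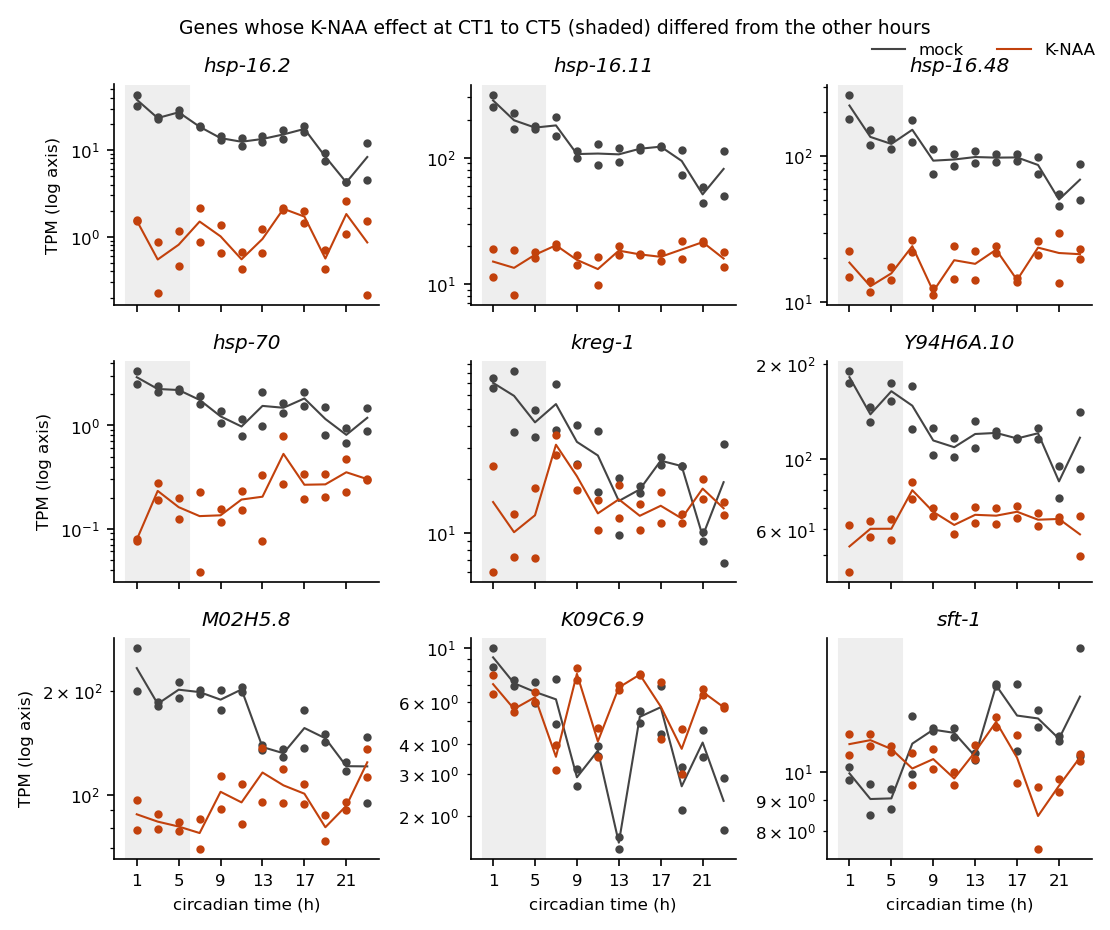
TPM on a log axis over the day (horizontal axis, CT in hours) for 9 of the 10 genes whose K-NAA effect differed between CT1 to CT5 and the other hours (F59A7.12, with values of 0, is left out), in mock and K-NAA, with each point a library, lines through the mean of each time point and the hours CT1 to CT5 shaded. The *hsp-16.2* mock line falls from 38.1 TPM at CT1 to 4.24 TPM at CT21 while the K-NAA line stays between 0.548 and 2.10 TPM.

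By calls, 89 of the 243 genes (36.6%) were also called in all 3 later windows, 56 (23.05%) in 2 of them, 34 (13.99%) in 1 and 64 (26.3%) in none. Of the 64, 29 were at an unadjusted p under 0.05 in the test of a differing effect (limma), against 6.22% of all genes tested. Only 1 passed it, *kreg-1*, so most of the 64 were not shown to differ from the other hours. The 64 were picked by their calls in the same libraries, which by itself favors a small p in this test. The 29 therefore give no support for an effect particular to CT1 to CT5. The windows held 525, 751 and 759 called genes (3.8, 5.44 and 5.49%), of which those shared with CT1 to CT5 were 141, 154 and 118, or 58.0, 63.4 and 48.6% of the 243 and 26.9, 20.5 and 15.5% of the later lists. The sign was the same for every shared gene. The 64 include *cyp-35A3*, *cyp-35A4*, *atf-2* and *nlp-28*, which rose, and *hrg-7*, a secreted protein of the aspartic protease family that signals heme status between tissues. *hrg-7* lay between 95.9 and 109 TPM in mock (median 101) and between 96.8 and 245 TPM in K-NAA (median 174), overlapping, with a log2 difference of 0.73 here (SE 0.159, adjusted p = 0.0484 from limma) and 0.15, 0.37 and -0.04 later, and its call was lost in 11 of the 12 fits that left out a library. Also called only here was *lec-6*, a galectin, with a log2 difference of -0.46 (adjusted p = 0.0449) and an effect difference of -0.45 that missed the threshold (adjusted p = 0.0528, limma for both). Its call at CT1 to CT5 was lost in 10 of the 12 fits that left out a library, with adjusted p from 0.0211 to 0.108 (limma).

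Conversely, 94 genes were called in all 3 later windows and not at CT1 to CT5. Of these, 49 were at an unadjusted p under 0.05 for a differing effect (6.22% of all genes tested were), and 0 passed (limma). They too were picked by calls in the same libraries, so the 49 give no support for a differing effect. Of the 12 mitochondrially encoded genes none was called here, with a median log2 difference of -0.22, and 6, 7 and 5 fell in the later windows, with medians of -0.44, -0.44 and -0.52, where 1.2% of all genes tested were lower here and 3.12, 3.9 and 3.6% later. All 12 had a negative sign at CT1 to CT5, and the lowest adjusted p was that of *atp-6*, the gene of an ATP synthase subunit, at 0.0613 (limma, log2 difference -0.51). None of the 12 passed the test of a differing effect, and 4 were at an unadjusted p under 0.05. Of 48 histone genes, whose near-identical copies make single values uncertain, 2 fell here and 1, 6 and 11 in the later windows, beside the same shares of all genes.

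Within CT1 to CT5 no gene had a K-NAA effect that changed among the 3 time points at an adjusted p under 0.05 (limma F test, 543 genes at an unadjusted p under 0.05, 3.93%). The smallest p among the genes of at least 1 TPM was that of F28H1.1, with log2 differences of 0.33 at CT1, 0.04 at CT3 and -0.47 at CT5 (adjusted p = 0.481).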

How the data were processed

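Whole-body polyA RNA of adult JDW259 worms was sequenced, with 2 culture plates as replicates per time point and condition. The authors quantified reads with Salmon against the WS284 mRNA sequences and deposited TPM values of 19885 genes. The processing notes list the build ce10. TPM values keep no depth, so precision rests on the spread between plates and no counting error is given. The 7 columns of BioCycle results (rhythm statistics of the authors) were not used.

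Samples were grouped by their labels. Tests used limma 3.58.1 (with trend, R 4.3.3) on log2(TPM + 0.5), which understates changes of low genes, keeping 13813 genes that averaged 0.25 TPM or more in the 48 libraries. P-values were adjusted over all of these by Benjamini-Hochberg. The window fit had the time point as a factor (12 libraries). The contrast with the other hours used 48 libraries and 1 mean per condition and time point. Genes named were the 12 highest and 12 lowest differences of the called genes that averaged 1 TPM or more and had 1 sign at CT1, CT3 and CT5, the 10 smallest p of the contrast, the 5 smallest p within the window, *nhr-23*, the clock homologs, the cluster ii genes and up to 4 genes of each of 50 lists. Other heat shock and ER genes, *hsp-70* and the genes of the lists beyond 4 were chosen after their values were seen. The members and lists were chosen with earlier results of these data known. Positions were taken from Ensembl (WBcel235) for 13537 of the 13813 genes. Fits were tested on simulated data. Alternatives were other pseudocounts, filters, scalings, variance priors, replicate blocks, thresholds and reference hours, and leaving out time points, replicates and libraries. Added after seeing the data were a sperm RNA covariate and the fit without 2 mock libraries.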

Additional observations from a re-analysis of the deposited data

Results flagged for a closer look

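For the 77 genes checked, 154 groups of 6 libraries were looked at for 1 library far from the other 5, and 12 had one, where chance gives about 1 in 20. Of these, 6 lay in mock CT1. In mock CT1 replicate 2, *nhr-85* was 1.51 TPM (others 0.718 to 0.990), M02H5.8 266 TPM (others 181 to 212), *hsp-70* 3.35 TPM (others 2.12 to 2.53), *fat-5* 145 TPM (others 116 to 125) and *lbp-8* 8.39 TPM (others 2.32 to 4.05). In mock CT1 replicate 1, *hsp-16.41* was 37.4 TPM (others 20.8 to 24.5). In mock CT3, *nhr-23* was 37.4 TPM in replicate 2 (others 31.9 to 33.3), *hsp-17* was 137 TPM in the same library (others 148 to 153) and Y54G2A.45 was 9.24 TPM in replicate 1 (others 2.50 to 3.98). Y54E5A.8 was 15.5 TPM in mock CT5 replicate 2 (others 8.23 to 10.6). In K-NAA CT1 replicate 1, *noah-1* was 5.28 TPM (others 3.63 to 4.15) and F44E5.4 was listed at 0 (others 1.64 to 2.52 TPM).

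The K-NAA effect differed between CT1 to CT5 and the other 9 time points, by the test of the difference itself, for 10 genes. On the log2 scale the differences were -1.53 for *hsp-16.2*, -1.30 for *hsp-16.11*, -1.06 for *hsp-16.48*, -0.92 for *hsp-70*, 0.46 for *sft-1*, -1.83 for *kreg-1*, -0.84 for K09C6.9, -0.64 for M02H5.8, -0.68 for Y94H6A.10 and -2.29 for F59A7.12.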

How the results depend on the processing

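The 243 genes called at CT1 to CT5 became 145, 100 and 95 without CT1, CT3 and CT5, 138 without the 2 mock libraries highest in sperm RNA, 409 at an adjusted p under 0.1 and 124 under 0.01. Leaving out a replicate or a library gave 10 to 410. All other settings gave 206 to 306, among them 302 with a replicate block and 260 with a replicate block by time point. Deviations of plates with the same number correlated at -0.014 to 0.046 over CT1 to CT5, so the number does not pair the samples. The 10 genes that differed from the other hours became 6 and 13 with pseudocounts of 0.1 and 1, 12 and 4 with the 2 replicate blocks, 0, 1 and 18 against CT7 to CT11, CT13 to CT17 and CT19 to CT23 alone, and 30 at an adjusted p under 0.3. They became 1, 3 and 1 without CT1, CT3 and CT5, and 6, 3, 6 and 1 without CT9, CT15, CT19 and CT21. Leaving out a library gave 0 to 10. The count was 0 both without replicate 1 and without replicate 2 (822 and 764 genes at an unadjusted p under 0.05, limma). The fits without a replicate used another model, in which time points within the window and within the other hours served as replicates. Their zeros therefore cannot be laid to the loss of libraries alone. Within the window 1 gene in place of 0 changed with time when all 48 libraries were fitted. Without replicate 1 or 2 the later windows had 4 and 38, 4 and 12, and 3 and 5 calls. Over 89 results on single genes and 2853 settings, 577 lost their call, 8 gained one and none reversed. Of 72 called, 25 kept the call under every setting that left out neither a replicate nor a single library, and all 72 kept their sign under every setting.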
